A study of Mus musculus with 6 samples.

Results

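The receptors for granulocyte colony-stimulating factor (G-CSF), granulocyte-macrophage colony-stimulating factor (GM-CSF), interleukin 3 (IL-3) and interleukin 5 (IL-5) were followed in mouse myeloerythroid progenitors with and without active Notch2. All probe sets annotated to exactly Csf3r, Csf2ra, Il3ra, Il5ra, Csf2rb or Csf2rb2 were taken, which gave 8 of the 45101 probe sets on the array for 6 genes. Of these, 7 probe sets of 5 genes were bright enough to be tested, and the single Il5ra probe set was not. A probe set was tested where it exceeded the 40th percentile of its array on at least 3 of the 6 arrays.

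The cells were bone marrow cells sorted as lineage negative, cKit+ and Sca1-, profiled on Affymetrix arrays. The ICN2-positive group (3 arrays) came from Rosa-lsl-ICN2 Mx1-cre+ mice and the ICN2-negative group (3 arrays) from Mx1-cre+ littermates. ICN2 is the intracellular domain of Notch2, a constantly active form, expressed here from the Rosa locus once Cre has removed a stop cassette. Mx1-cre is driven by an interferon-responsive promoter that is active in blood cells but also in other tissues, so neighbouring cells can recombine too. Mice of both groups were 6 weeks old and received 3 injections of polyIC, an inducer of interferon, at 20 mcg per g of body weight, and cells were taken 1 week after the last injection. All ICN2-negative samples were female and all ICN2-positive samples male, so a difference by genotype and one by sex cannot be told apart. The labels do not say that the replicates were separate animals, and p-values therefore measure only how far these samples vary, perhaps for technical reasons. The precision is limited by the number of arrays.

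These receptors carry the main growth and survival signals of myeloid progenitors. The G-CSF receptor, encoded by Csf3r, pairs with itself. The receptors for GM-CSF, IL-3 and IL-5 each join a ligand-specific alpha chain (Csf2ra, Il3ra, Il5ra) to a shared beta chain, Csf2rb, and the mouse has a further beta chain, Csf2rb2, that serves IL-3 only. The beta chains bind JAK2 and signal largely through STAT5, whereas the alpha chains set which cytokine a cell can sense.

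The arrays had median log2 intensities of 6.05 to 6.09. Array ICN2-positive replicate 1 stood apart: its correlation with the other ICN2-positive arrays was 0.984 and 0.987, against 0.994 to 0.995 for any other pair of arrays within a group. Its 3' to 5' difference for beta-actin, a sign of RNA quality, was 1.01 on the log2 scale, against 0.71 to 0.85 on the other arrays. The receptor results are therefore given with and without this array. Kit, the receptor used in the sort, lay between 10.15 and 10.86 on the log2 scale on all 6 arrays. Ly6a, which encodes Sca1, was not analysed here. Cd3e, a T cell lineage marker, was above the 40th percentile on 2 of 3 ICN2-negative and 3 of 3 ICN2-positive arrays. It differed by 1.35 (limma with 1 probe set per gene, adjusted p = 0.116). Cd34 and Ptprc were listed beside these genes. Cd34 read 12.44, 12.38 and 12.31 in the ICN2-negative and 9.50, 11.99 and 11.60 in the ICN2-positive arrays (adjusted p = 0.246). Ptprc differed by -0.38 (adjusted p = 0.495).

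The ligand-binding receptor chains were lower in every ICN2-positive array than in any ICN2-negative array, for Csf3r, Il3ra and the brighter Csf2ra probe set. The beta chains were far below the ICN2-negative range in ICN2-positive replicate 1 only, and Csf2rb was just below it in replicate 3. Of the 7 tested probe sets, none passed an adjusted p of 0.05 in limma (Benjamini-Hochberg over 27424 probe sets), where 2.65% of all probe sets passed (0.988% lower, 1.67% higher), and 3 had an unadjusted p under 0.05, as had 24.3% of all probe sets. Without ICN2-positive replicate 1, 2 of the 7 passed, both lower, where 3.14% of all probe sets passed and 1.55% were lower. The groups did not overlap, with ICN2-positive below, for 3 of the 7, and for 14.0% of all probe sets tested, with ICN2-positive above for none of the 7 and for 19.7%. The median difference (ICN2-positive minus ICN2-negative) of the 7 was -1.09 on the log2 scale, and -0.18 without that array, beside 0.03 over all probe sets tested. The groups are bulk cells, and fewer receptor-bearing cells cannot be told apart from less receptor RNA per cell.

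**Figure D1:**
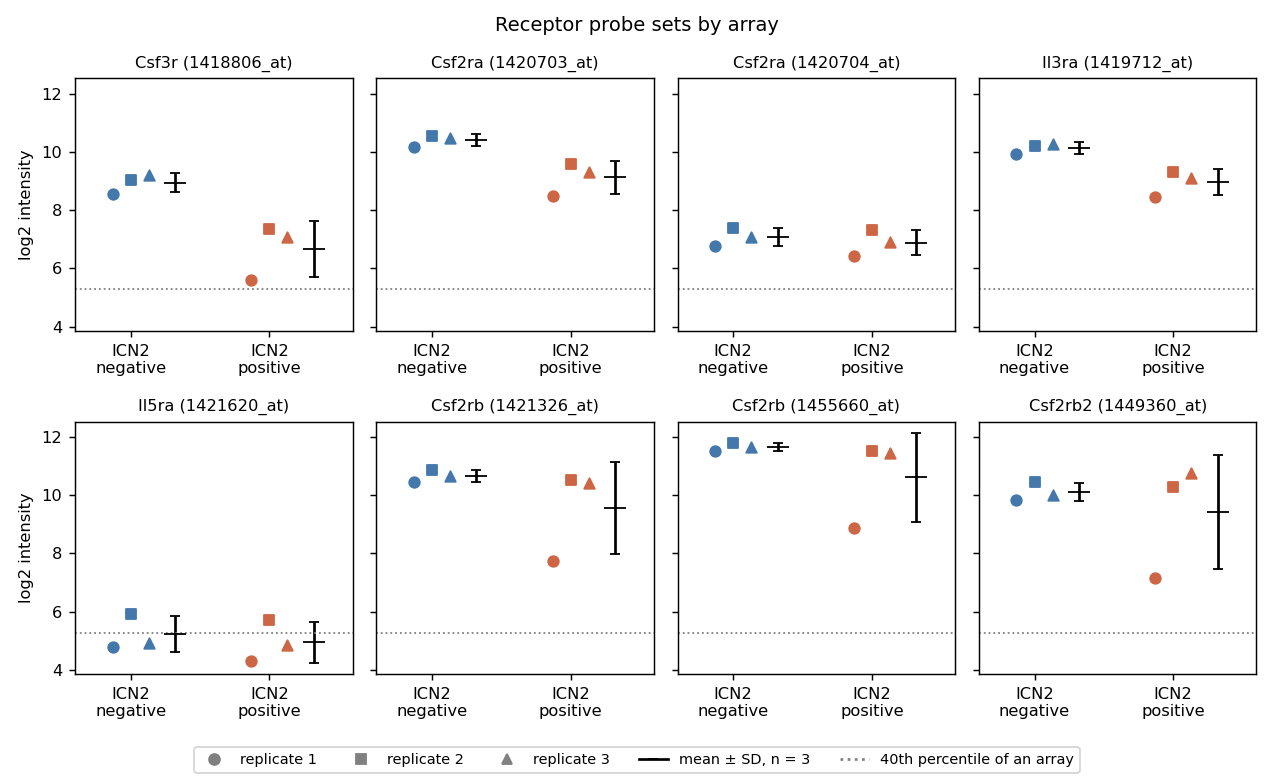
Log2 intensity (y axis) of each receptor probe set in the ICN2-negative and ICN2-positive groups; symbols mark the replicate number, the bar is mean ± SD (n = 3), and the dotted line is the 40th percentile of an array. Csf3r, Il3ra and the brighter Csf2ra probe set did not overlap between the groups. Csf2rb and Csf2rb2 were far below the ICN2-negative arrays in ICN2-positive replicate 1 alone.

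Csf3r, the receptor through which G-CSF drives neutrophil production, had log2 intensities of 8.57, 9.03 and 9.21 in ICN2-negative replicates 1 to 3. In ICN2-positive replicates 1 to 3 it read 5.59, 7.37 and 7.07. All ICN2-positive arrays lay below all ICN2-negative arrays, and replicate 1 was close to the 40th percentile of its array. The difference was -2.26 ± 0.49 (SE, n = 3 per group), a 4.80-fold lower level, with a 95% interval of -3.46 to -1.06 and an adjusted p of 0.0767. Without ICN2-positive replicate 1 it was -1.72 and passed the test (adjusted p = 0.0324, with 0.0158 to 0.229 over its 14 alternative fits).

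Il3ra, the alpha chain that binds IL-3, read 9.92, 10.21 and 10.28 in the ICN2-negative arrays. The ICN2-positive arrays read 8.46, 9.32 and 9.11. The groups did not overlap, and the difference of -1.17 ± 0.24 (95% interval -1.77 to -0.58, 2.25-fold lower) missed the threshold (adjusted p = 0.0727). Without ICN2-positive replicate 1 it was -0.92, and it passed (adjusted p = 0.0485, with 0.0145 to 0.222 over 14 alternative fits).

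Csf2ra, the alpha chain that binds GM-CSF, was read by 2 probe sets that gave different answers, although both were designed from the same expressed sequence. The brighter one (1420703_at) read 10.16, 10.53 and 10.49 in the ICN2-negative arrays. It read 8.49, 9.58 and 9.32 in the ICN2-positive arrays. Again the groups did not overlap, with a difference of -1.26 ± 0.30 (95% interval -1.99 to -0.53, 2.40-fold lower, adjusted p = 0.0876). Without ICN2-positive replicate 1 the difference was -0.94, with an adjusted p of 0.0534 over probe sets and 0.0388 in the fit with 1 probe set per gene (12837 genes). The dimmer probe set (1420704_at) read 6.76, 7.40 and 7.07 against 6.43, 7.31 and 6.91, so the groups overlapped. Its difference was -0.19 ± 0.27 (95% interval -0.85 to 0.47, adjusted p = 0.697). The fit with 1 probe set per gene uses only the brighter one, and with all arrays its adjusted p was 0.0743. With the mean of both probe sets and all arrays, the Csf2ra difference was -0.73 (limma, adjusted p = 0.159).

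Il5ra, the alpha chain that binds IL-5 and marks eosinophil progenitors, was dim. It read 4.79, 5.94 and 4.94 in the ICN2-negative arrays and 4.30, 5.70 and 4.84 in the ICN2-positive arrays. Only replicate 2 of each group exceeded the 40th percentile of its array, and the groups overlapped. With no filter on dim probe sets its difference was -0.28 (adjusted p = 0.804).

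The start regions of the chains whose groups did not overlap are shown because these genes were low in the same arrays. They are the 250 bases before the start in the RefSeq table (GRCm38.p6), 5′ to 3′ on the gene's strand, for Csf3r at chr4:126024409-126024658 (+ strand), Csf2ra at chr19:61228419-61228668 (- strand) and Il3ra at chr14:14346245-14346494 (+ strand). Capitals mark matches on either strand to 4 short motifs. The PU.1 motif searched was GAGGAA. RBPJ, the DNA-binding partner of Notch, was searched as TGGGAA. The C/EBP motif was TTGCNNAA. The GATA motif was AGATAA.
Csf3r: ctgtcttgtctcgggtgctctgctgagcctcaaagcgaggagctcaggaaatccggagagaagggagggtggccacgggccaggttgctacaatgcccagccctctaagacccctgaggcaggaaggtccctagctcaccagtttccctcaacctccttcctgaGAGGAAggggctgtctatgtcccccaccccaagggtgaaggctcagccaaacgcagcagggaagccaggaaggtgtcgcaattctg
Csf2ra: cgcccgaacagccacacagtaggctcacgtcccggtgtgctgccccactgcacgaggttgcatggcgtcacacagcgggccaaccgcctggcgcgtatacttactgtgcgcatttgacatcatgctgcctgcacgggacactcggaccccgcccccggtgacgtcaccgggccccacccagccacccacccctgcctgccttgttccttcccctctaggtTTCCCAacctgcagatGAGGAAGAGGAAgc
Il3ra: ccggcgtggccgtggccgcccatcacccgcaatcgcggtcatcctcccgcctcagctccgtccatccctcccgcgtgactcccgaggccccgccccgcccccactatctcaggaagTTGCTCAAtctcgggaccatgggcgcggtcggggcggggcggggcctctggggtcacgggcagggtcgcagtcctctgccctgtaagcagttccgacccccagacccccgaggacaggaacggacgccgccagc
The PU.1 motif occurred once in the Csf3r window, 86 bases before the start, and in adjoining copies at 14 and 8 bases before the start of Csf2ra. The RBPJ motif occurred in Csf2ra alone among the 5 receptor genes with an entry, on the other strand, 30 bases before the start. Il3ra held a C/EBP match 134 bases before the start. Of all 32851 windows of this length, 23.3% held the PU.1 motif, 21.6% that of RBPJ, 9.56% that of C/EBP and 9.99% that of GATA, so such matches are frequent. Il5ra held a GATA match 74 bases before its start, and Csf2rb2 a PU.1 match on the other strand, 167 bases before its start. These matches are letters in a window, and binding was not measured.

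The shared beta chain Csf2rb, needed for GM-CSF, IL-3 and IL-5 signalling, gave like values on both of its probe sets. The brighter one (1455660_at) read 11.51, 11.80 and 11.65 in the ICN2-negative arrays. It read 8.86, 11.52 and 11.44 in the ICN2-positive arrays. Replicate 1 was 6.17-fold below the mean of the other ICN2-positive arrays, which lay within or just below the ICN2-negative range. The difference was -1.04 ± 0.73 (95% interval -2.85 to 0.76, adjusted p = 0.430). Without replicate 1 it was -0.17 (95% interval -0.45 to 0.12, adjusted p = 0.429).

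The other Csf2rb probe set (1421326_at) read 10.45, 10.84 and 10.66 against 7.75, 10.52 and 10.43. Its difference of -1.09 ± 0.76 (adjusted p = 0.429) became -0.18 without replicate 1 (95% interval -0.53 to 0.18). Leaving out this array moved the Csf2rb differences more than those of Csf3r, Il3ra or Csf2ra.

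Csf2rb2, the beta chain reserved for IL-3, is the nearest protein-coding neighbour of Csf2rb on the side where it lies. It read 9.84, 10.44 and 10.00 in the ICN2-negative arrays. The ICN2-positive arrays read 7.17, 10.29 and 10.77, which are the lowest and the highest values of the 6 along with an intermediate one. The difference was -0.68 ± 0.95 (95% interval -3.02 to 1.66, adjusted p = 0.700). Without replicate 1 the direction turned, to 0.44 (95% interval -0.17 to 1.05, adjusted p = 0.341). In replicate 1 it lay 10.3-fold below the mean of the other ICN2-positive arrays, a shortfall exceeded by 0.237% of all probe sets tested.

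All 8 receptor probe sets had their lowest value of the 6 arrays in ICN2-positive replicate 1. The beta chains stood at -2.79 to -2.93 from their ICN2-negative means there, beside -1.90 for the brighter Csf2ra probe set and -1.68 for Il3ra. Csf3r stood at -3.35 in that array but also at -1.57 and -1.87 in ICN2-positive replicates 2 and 3, where the alpha chains of the GM-CSF and IL-3 receptors lay between -0.81 and -1.07. The beta chains lay between -0.23 and 0.68 in those arrays. ICN2-negative replicate 1 was in turn the lowest of its own group for all 8 probe sets, at -0.43 to -0.14 from the ICN2-negative means.

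**Figure D2:**
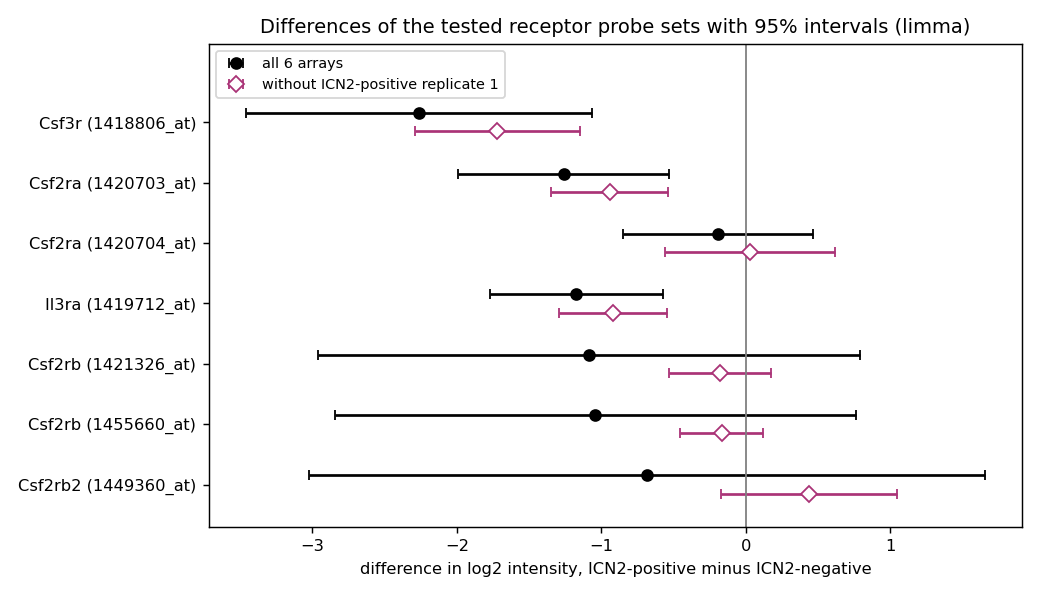
Difference in log2 intensity (x axis, ICN2-positive minus ICN2-negative) of the 7 tested receptor probe sets, with 95% intervals from limma, for all 6 arrays (filled circles) and without ICN2-positive replicate 1 (open diamonds). The intervals of Csf3r, Il3ra and the brighter Csf2ra probe set lie below 0 in both fits. Those of the beta chains shrink without that array and include 0, around values near 0 for Csf2rb and 0.44 for Csf2rb2.

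Whether the receptors differed in the size of the group difference was asked by taking each one relative to the brighter Csf2rb probe set within the same array, for 5 pairs. With 3 against 3 arrays the smallest p of a two-sided exact permutation test is 0.1. Csf3r relative to Csf2rb stood at -2.94, -2.77 and -2.43 in the ICN2-negative arrays. In the ICN2-positive arrays it stood at -3.27, -4.15 and -4.38, below every ICN2-negative array. The difference between groups was -1.22 (exact p = 0.1, the smallest possible, and 0.5 adjusted over the 5 pairs). It was the only one of the 5 ratios whose groups did not overlap.

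Relative to Csf2rb, Csf2ra differed by -0.22 (exact p = 0.9) and Il3ra by -0.13 (exact p = 1, both 1 after adjustment). The ICN2-positive arrays were split. Csf2ra stood at -1.94 and -2.12 in replicates 2 and 3, below the ICN2-negative range of -1.35 to -1.16, and at -0.36 in replicate 1, above it. Il3ra stood at -2.20 and -2.33 in those replicates, below its ICN2-negative range of -1.59 to -1.36, and at -0.40 in replicate 1. Without replicate 1 the values were -0.78 for Csf2ra and -0.75 for Il3ra. Il5ra relative to Csf2rb differed by 0.77 (exact p = 0.2, adjusted 0.5), and by 0.21 or 1.24 when ICN2-positive replicate 1 or 3, respectively, was left out. Since Il5ra was below the 40th percentile on 4 of the 6 arrays, the size of its difference cannot be read closely. Csf2rb2 differed by 0.36 (exact p = 0.4, adjusted 0.667), and by 0.61 or 0.097 in the same order.

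**Figure D3:**
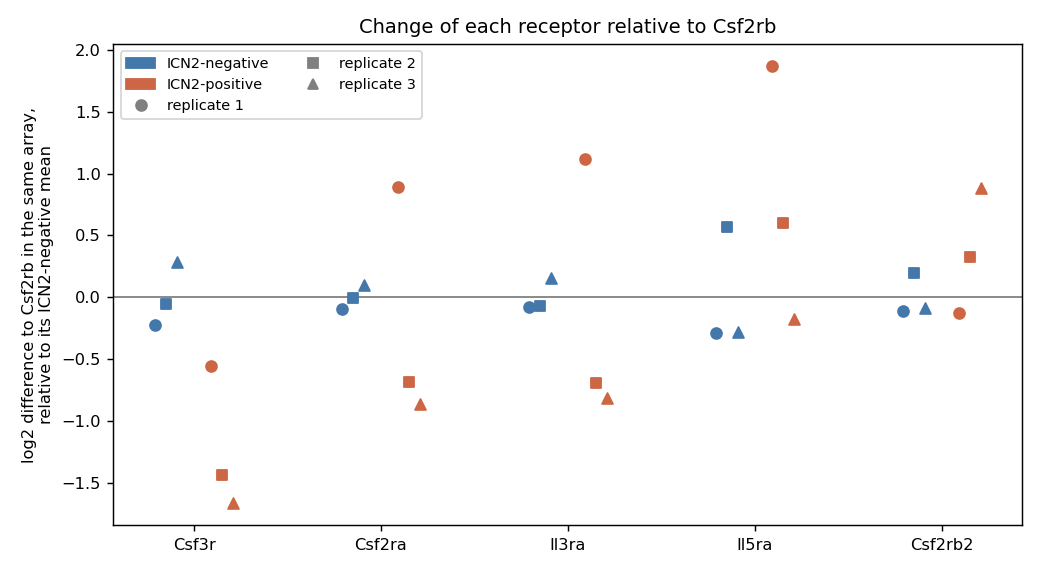
Log2 difference of each receptor to Csf2rb in the same array, relative to its ICN2-negative mean (y axis), for the brightest probe set of each gene (x axis), with groups by colour and replicate number by symbol. Csf3r lies below the ICN2-negative arrays in all 3 ICN2-positive arrays, and Csf2ra and Il3ra do so in replicates 2 and 3.

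The genes with the profile most like each receptor were found by the root mean square difference of mean-centred log2 values over the 6 arrays. These profiles share the same 6 arrays, and ICN2-positive replicate 1 weighs on all of them. For Csf3r the nearest were Slc31a2 (0.134), Rhob (0.142) and the predicted gene Gm20161 (0.145). For Csf2ra they were Stx7 (0.0572), Gstm4 (0.0600) and Renbp (0.0821), and Il3ra was the gene at rank 4 (0.0891). For Il3ra they were Per3 (0.0444), Tcirg1 (0.0711) and Dok3 (0.0757), with Csf2ra at rank 5. The alpha chains for GM-CSF and IL-3 were thus close to each other in profile.

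For Csf2rb the nearest were Csrp3 (0.0983), Cd53 (0.139) and Prg2 (0.161), the eosinophil major basic protein gene, with Csf2rb2 at rank 114. For Csf2rb2 they were Dusp1 (0.269), Ifit1 (0.297) and Xaf1 (0.298), with Csf2rb at rank 13. For the dim Il5ra they were Neat1 (0.190), Fas (0.20) and Bcl2l14 (0.203).

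The genes around the receptors were read with 1 probe set per gene, where 4.36% of 12837 genes passed, 2.59% higher and 1.78% lower, and 5.98% without ICN2-positive replicate 1, 2.91% higher and 3.08% lower. An unadjusted p under 0.05 was reached by 27.4% of all genes with all arrays, which is the background for each such count below. Among 6 ligand genes, only Csf1, the macrophage growth factor, was bright enough to be tested, at 6.91 to 7.18 in the ICN2-positive and 7.05 to 7.11 in the ICN2-negative arrays (difference -0.09, adjusted p = 0.611). The ligand genes of the receptors described here were below the filter on dim probe sets. Csf3 read 3.68 to 4.12, Il3 read 3.40 to 3.78 and Il5 read 3.38 to 3.88. Csf2 read 4.08 to 4.66, and Il34, a further ligand of the Csf1 receptor, read 4.23 to 4.51.

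Of the receptor tyrosine kinases for myeloid growth factors, 1 of 3 passed. Flt3, the receptor of early dendritic and lymphoid progenitors, fell (9.06, 9.85 and 8.71 against 5.41, 5.56 and 5.53), and its adjusted p was 0.00638 and at most 0.0386 with any array left out. Csf1r, the macrophage growth factor receptor, read 12.45, 12.83 and 12.84 against 9.06, 11.89 and 11.76 (adjusted p = 0.208). Like Csf3r it did not overlap between the groups, and without ICN2-positive replicate 1 it passed at -0.88 (adjusted p = 0.0411, with 0.0411 to 0.409 over its alternatives). Kit differed by 0.12 ± 0.19 (adjusted p = 0.711), and by 0.33 without that array.

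Of 12 other class I cytokine receptors tested, 1 rose and 2 fell, 9 missed the threshold, and the list had a median of -0.19 beside 0.02 over all genes. Il6st, the signalling chain shared by the interleukin 6 family, fell by 3.40 on the log2 scale (adjusted p = 0.0221), and its other probe sets gave -0.23 and -3.38. Il21r, the receptor for interleukin 21, fell by 1.14 (adjusted p = 0.0280). Il2ra, which encodes the high-affinity subunit for interleukin 2, rose from 4.33 ± 0.42, below the 40th percentile on all ICN2-negative arrays, to 7.70 ± 0.84 (adjusted p = 0.0231). The filter admitted Il2ra only through the ICN2-positive arrays, where it was higher, which limits what its call shows. Leaving out ICN2-negative replicate 1, 2 or 3 in turn ended each of these 3 calls, as did leaving out ICN2-positive replicate 3 for Il6st, 2 for Il2ra and either of them for Il21r (highest adjusted p 0.106, 0.108 and 0.0893). Il6ra, the alpha chain for interleukin 6, differed by -2.70 ± 0.60 (adjusted p = 0.0672), and its other probe set by -0.33. Without ICN2-positive replicate 1, 2 of the 12 were higher and 4 lower and passed, with a median of -0.05, and Il6ra was among those lower (adjusted p = 0.00556, with 0.00556 to 0.210 over its alternatives).

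Of 18 proximal signalling genes, 1 rose and 17 did not pass, and 9 of the 18 had a lower mean. Sos1, an activator of Ras, rose by 0.73 ± 0.10 (adjusted p = 0.0245), a call that leaving out replicate 2 or 3 of either group ended (highest adjusted p 0.112). The other genes with the smallest p were Fgr, a SRC family kinase gene, at 0.68 (adjusted p = 0.0835), the adaptor gene Shc1 at -0.32 (adjusted p = 0.0950) and Vav1 at -0.41 (adjusted p = 0.176).

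Jak2, the kinase bound to the beta chains, differed by -0.09, Stat5a by 0.09 and Stat5b by 0.03 on their brightest probe sets. Their other probe sets gave -0.02 for Jak2, 0.87 for Stat5a and 0.47 for Stat5b. These 3 were named outside the rule for named genes, for their place in the pathway.

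None of 12 negative regulators passed in limma, and 4 had an unadjusted p under 0.05, near the 27.4% of all genes. Cish, a STAT5-induced inhibitor of these receptors, read 7.61, 7.27 and 6.32 against 9.73, 8.45 and 8.80, with no overlap (difference 1.93 ± 0.46, adjusted p = 0.0757). Socs2, an inhibitor of the same family, differed by 1.64 ± 0.63 (adjusted p = 0.168), the phosphatase gene Ptpn6 by 0.38 (adjusted p = 0.0790) and Spred1, an inhibitor of Ras signalling, by 0.47 (adjusted p = 0.105).

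Of 17 targets of STAT5 and STAT3, 2 fell and 15 did not pass, with a median of -0.15. Cebpd, a transcription factor of the granulocyte line, fell by 1.59 on the log2 scale (adjusted p = 0.0377), and the cyclin gene Ccnd3 fell by 0.60 (adjusted p = 0.0289), although its other probe sets gave 1.12 and -0.22. Both calls were lost without any 1 ICN2-negative array or ICN2-positive replicate 3 (highest adjusted p 0.143 and 0.123). The survival gene Bcl2l1 differed by -0.46 (adjusted p = 0.0744) and the cyclin gene Ccnd2 by 0.47 (adjusted p = 0.0748).

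None of 12 tested transcription factors known to act on receptor expression passed in limma with all arrays, where 4 had an unadjusted p under 0.05, near the 27.4% of all genes. Their median difference was -0.42, and -0.19 without ICN2-positive replicate 1, where 3 were lower and passed (3.08% of all genes did so). Klf4, a monocyte factor, differed by -1.92 ± 0.43 (adjusted p = 0.0682) and Cebpb, of the C/EBP family, by -0.77 ± 0.20 (adjusted p = 0.0871), with -0.02 on its other probe set. Gfi1, needed for granulocytes, differed by -2.91 ± 0.85 (adjusted p = 0.109), and by -1.90 without that array (adjusted p = 0.00728, with 0.00728 to 0.267 over its alternatives). Irf8, needed for monocytes, differed by -3.15 ± 1.19 (adjusted p = 0.164), and by -1.74 without it (adjusted p = 0.0125, with 0.0125 to 0.357 over its alternatives).

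**Figure D4:**
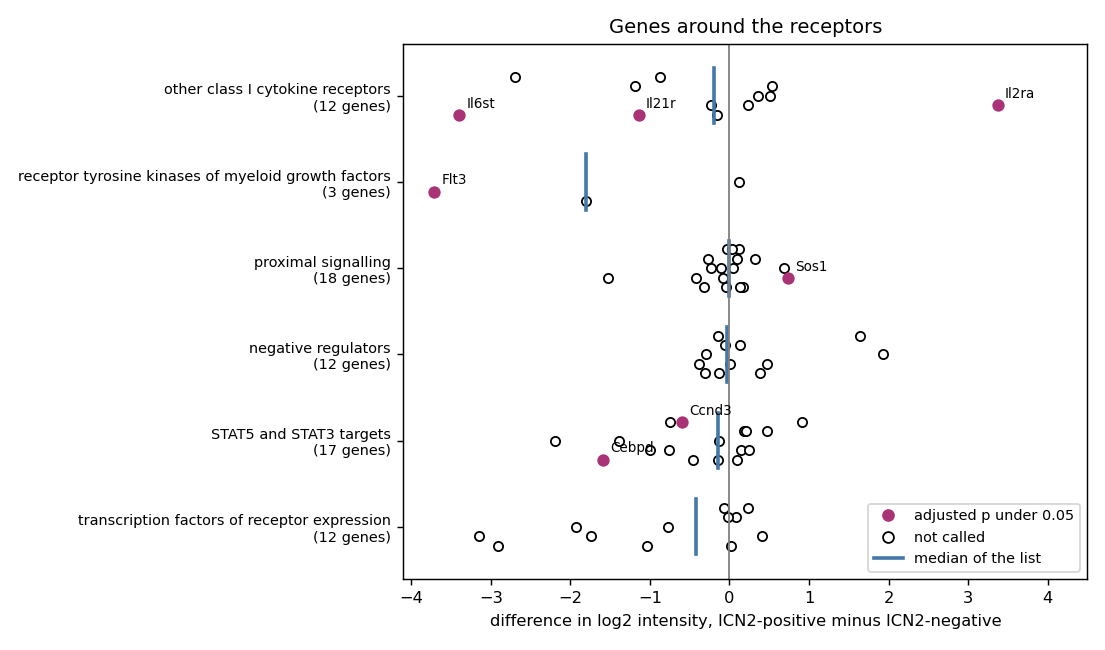
Difference in log2 intensity (x axis, ICN2-positive minus ICN2-negative) of each tested gene in the receptor pathway lists (y axis), with genes that passed an adjusted p of 0.05 marked. Flt3 and Il6st lie lowest among the genes that passed.

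The levels of myeloid cell markers are given beside the receptors, and their part in the receptor differences was not tested. All 13 markers of granulocyte-monocyte progenitors had a lower mean in the ICN2-positive group, none passed in limma (2 had an unadjusted p under 0.05), and 4 passed without ICN2-positive replicate 1. Their summed intensity was 134514 to 152233 in the ICN2-negative arrays, against 44290, 114339 and 104225 in ICN2-positive replicates 1 to 3. As for the beta chains, replicate 1 lay far below the rest. The other ICN2-positive arrays also both lay below every ICN2-negative array, which held for neither beta chain. None of these markers was below the filter on dim probe sets.

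Of 10 monocyte and macrophage markers, 1 fell and 9 had a lower mean, with a median of -2.25, and 8 were lower and passed without ICN2-positive replicate 1. Their summed intensity was 25945 to 37186 against 2251, 10363 and 8663, so all ICN2-positive arrays were low, as for Csf3r. Vcam1, an adhesion molecule of macrophages, fell by 2.71 on the log2 scale (adjusted p = 0.0380), a call lost without any 1 array other than ICN2-positive replicate 1 (highest adjusted p 0.145). Of 12 late neutrophil markers, 1 fell and 11 had a lower mean. Mmp8, a collagenase of neutrophil granules, was not above the 40th percentile on any ICN2-positive array (6.52 ± 0.08 against 5.07 ± 0.22, SD, n = 3, adjusted p = 0.00758). The filter admitted Mmp8 only through the ICN2-negative arrays, where it was higher, which limits what its call shows. The summed late neutrophil intensity was 30767 to 37766 against 10605, 33618 and 30708.

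Eosinophil markers, beside Il5ra and the beta chains, gave a summed intensity of 8657 to 11810 against 1809, 12004 and 8996, and none of 5 passed in limma (1 had an unadjusted p under 0.05). That gene was Alox15, a lipoxygenase gene, which differed by 2.23 ± 0.59 (adjusted p = 0.0906) and was above the 40th percentile on 1 of 3 ICN2-negative arrays. It passed at 2.78 without ICN2-positive replicate 1 (adjusted p = 0.0350, with 0.00872 to 0.255 over its alternatives). A lower mean was found for 4 of the 5, with a median difference of -0.84, and 0.10 without that array. Epx, eosinophil peroxidase, differed by -1.17 (adjusted p = 0.423), and by -0.24 without that array, and Ccr3 was below the filter. Of 12 mast cell and basophil markers, cells that carry the IL-3 receptor, 4 rose. They were Il4 and the mast cell protease genes Mcpt1, Mcpt2 and Mcpt4. The other 8 did not pass, and 6 of the 12 had a lower mean. The median difference of the list was 0.02, and 0.87 without ICN2-positive replicate 1. The 3 protease genes were below the 40th percentile on all ICN2-negative arrays, so no fold is given. The filter admitted them only through the ICN2-positive arrays, where they were higher, which limits what their calls show. Mcpt2 read 10.26 ± 0.64 (SD, n = 3) in the ICN2-positive arrays (adjusted p = 0.00250). The Mcpt1 call was lost without ICN2-negative replicates 2 or 3 and the Mcpt4 call without any 1 ICN2-negative array (highest adjusted p 0.0597 and 0.0934). The summed mast cell and basophil intensity was 14091 to 17705 against 5520, 29988 and 23114.

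Of 11 erythroid markers, 3 fell (Trim10, Sptb and Epb42), with summed intensities of 60702 to 64238 against 59360, 53347 and 58861, so replicate 1 was not the lowest. The other probe sets of Sptb and Epb42 gave -0.03 and -0.17. Leaving out ICN2-negative replicates 2 or 3 ended the Sptb call, and leaving out any 1 ICN2-negative array or ICN2-positive replicate 2 ended the Epb42 call (highest adjusted p 0.0706 and 0.108). Of 8 B cell markers 1 fell, Dntt, the lymphoid DNA polymerase, by 4.39 (adjusted p = 0.0481), a call lost without any 1 of the 6 arrays (highest 0.170). The summed intensity was 3811 to 14961 against 948, 2647 and 1784, so it was low in all ICN2-positive arrays, as for the monocyte markers. Of the 8, 7 had a lower mean. Cd22 went the other way, at 6.49 to 7.06 against 5.87, 9.16 and 8.72. It passed at 2.20 without ICN2-positive replicate 1 (adjusted p = 0.0139, with 0.0139 to 0.719 over its alternatives). Of 9 T cell markers 1 rose, Il2ra, which passed the filter only through the ICN2-positive arrays. Their summed intensity was 427 to 820 against 1537, 3528 and 1510. None of 9 megakaryocyte markers passed in limma (1 had an unadjusted p under 0.05), with summed intensities of 2550 to 9416 against 2801, 5014 and 3594.

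**Figure D5:**
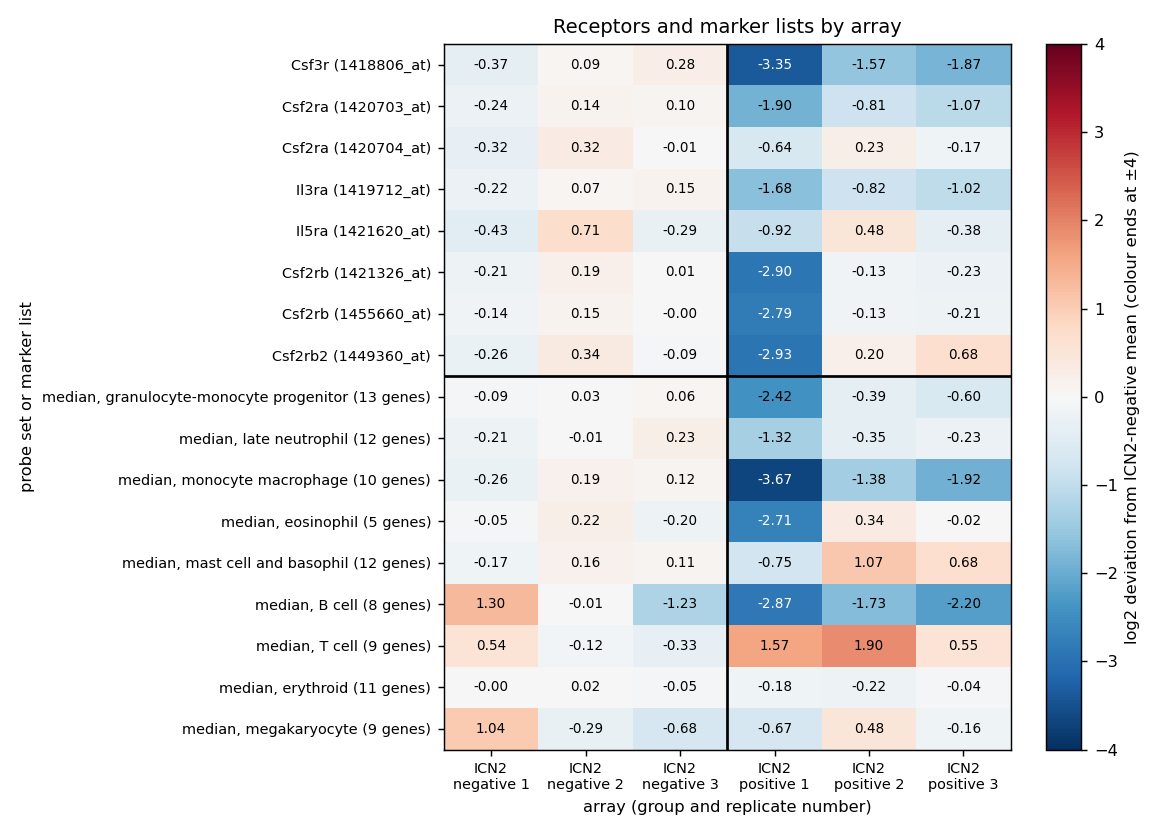
Log2 deviation from the ICN2-negative mean (colour and printed value) of each receptor probe set and the median of each marker list (vertical axis) in each of the 6 arrays (horizontal axis), with the colour scale ending at 4 in each direction. Granulocyte-monocyte progenitor and monocyte markers are lowest in ICN2-positive replicate 1, at -2.42 and -3.67, and erythroid markers lie between -0.22 and -0.04 in the 3 ICN2-positive arrays.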

How the data were processed

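Affymetrix arrays of 3 ICN2-negative and 3 ICN2-positive samples were read from 5 ng of total RNA amplified with the Nugen Ovation kit, per the labels' protocols. The authors deposited RMA values as linear intensities, per the labels; the RMA version was not given in the sources used here. Here they were taken to log2 and tested with limma 3.58.1 (R 4.3.3, moderated by eBayes, with Benjamini-Hochberg adjustment), without a replicate block, over 27424 probe sets and over 12837 genes with their brightest tested probe set. Of 45101 probe sets, 64 were controls, 34958 carried 1 gene symbol, 932 several and 9211 none. Alternatives covered the filter on dim probe sets, centring, normalisation, the offset, eBayes settings, array weights, thresholds and each array left out. Leaving arrays out of the list counts was added after seeing the data. The members and lists were chosen with earlier results of these data known. The rule for named genes took all receptors and ligands, plus any called gene and up to 4 with the smallest p per list. It also took Csf1r, Kit, Flt3 and Ly6a, and the 3 nearest profiles of each receptor. Ly6a was not analysed, some marker genes within the rule are not named, and Jak2, Stat5a, Stat5b, Cd22 and Ccr3 are named outside it. The code was tested on simulated data. Start regions came from the RefSeq table. Replicate numbers were not used as pairs in the main fit. Same-numbered arrays deviated together with correlations of 0.183, 0.101 and 0.0945, against -0.205 to 0.128 for the other pairings. These values do not settle whether the numbers mark pairs, so a fit with a replicate block is given as an alternative.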

Additional observations from a re-analysis of the deposited data

How the results depend on the processing

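In the main fit, with all arrays, no receptor probe set passed at an adjusted p of 0.05. The count was 3 at a threshold of 0.1, 2 with a trend and robust eBayes, 3 with array weights and 0 to 2 with 1 array left out. The array weights were 0.29, 0.67 and 4.03 for ICN2-positive replicates 1 to 3, and 0.88 to 1.46 for the ICN2-negative arrays. That fit thus leaned mostly on ICN2-positive replicate 3 for its group. The number of probe sets called moved from 728 to 2376 at 0.1, 103 at 0.01, 1252 with a trend and robust eBayes, 3970 with array weights, and 95 to 860 with 1 array left out. Genes called moved from 560 to 1601, 105, 3262 with array weights, and 99 to 768 with 1 array left out. Pathway genes called (7) ranged from 1 to 17 and marker genes called (11) from 4 to 26 with 1 array left out. With the replicate block, 268 probe sets, 340 genes and 0 receptor probe sets were called. In that limma fit the SE was 0.29 for Csf3r, 0.14 for Il3ra and 0.17 for the brighter Csf2ra probe set. Their adjusted p was 0.0684, 0.0644 and 0.0720. Csf2rb2 turned to 0.43 with array weights and ranged from -1.36 to 0.44 with 1 array left out, and the dimmer Csf2ra probe set ranged from -0.41 to 0.032 likewise (0.032 without ICN2-positive replicate 1). Relative to Csf2rb, Csf2ra turned to 0.34 with the mean over probe sets and ranged from -0.78 to 0.10, and Il3ra ranged from -0.75 to 0.21. The cause was not tested. The number of arrays limits what could be called.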

Other observations

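A probe set annotated to both Csf2rb2 and Csf2rb (1450200_s_at), outside the set of 8, read 7.18, 7.45 and 7.46 in the ICN2-negative arrays and 6.25, 7.59 and 7.42 in the ICN2-positive arrays. As for the probe sets of each gene alone, ICN2-positive replicate 1 was the lowest. The difference was -0.28, and 0.14 without that array.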
